A study of Mus musculus with 68 samples.

Results

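MCM2-2A#2, a mouse embryonic stem cell (ESC) clone in which the part of the helicase subunit MCM2 that binds histones is mutated, was compared with the wild-type clone WT#1. Members were the RNA-seq libraries of these lines in the rescue experiment, 10 of the 68 libraries of the series. Libraries titled tech1 and tech2 of the same culture were summed, which left 4 cultures per line. Both clones derive from the male E14JU line of 129/Ola background and were grown without treatment on gelatin in serum and LIF, the cytokine that sustains ESC self-renewal. Total RNA was depleted of rRNA, and strand-specific libraries were counted over genes and repeat subfamilies. As 1 clone stands for each line, the spread between cultures measures that clone and not a genotype, and genotype cannot be told apart from other differences between these clones. The comparison asks which transcripts differ in cells with this mutation, and 6 other WT and 5 other MCM2-2A clones of the same E14JU background are set beside it, none of which shares a library with it.

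During DNA replication, old histones H3 and H4 are passed to both daughter strands, and MCM2, a subunit of the helicase that unwinds DNA, carries part of them toward the lagging strand. These histones bear the marks that keep developmental genes and retroviruses silent. ESCs grown in serum move between naive, primed, primitive endoderm-like and 2-cell-like states. Primitive endoderm is the embryonic layer that makes yolk sac, basement membrane and nutrient receptors. The 2-cell-like state resembles the early embryo at the onset of its own transcription, and germ cell genes are held silent by DNA methylation and Polycomb proteins.

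Cultures of WT#1 held 24964517 to 60608619 counts and those of MCM2-2A#2 23161127 to 61759096. The noncoding RNA gene Gm26917 took 16.3% to 19.4% of the counts of a culture and repeats took 4.84% to 5.96%. Levels are given as CPM, counts scaled to library sizes corrected by TMM factors. The 8 ESC markers tested, among them Pou5f1, Nanog and Sox2, summed to 3971 to 4578 CPM in WT#1 and 4024 to 4550 CPM in MCM2-2A#2. With edgeR and with DESeq2 0 of these markers passed the test. Esrrb, Utf1 and Sox2 were lower at an unadjusted p under 0.05 (edgeR adjusted p = 0.0915, 0.0996 and 0.156). Fibroblast markers summed to 48.6 to 97.8 CPM in WT#1 and 42.4 to 72.2 CPM in MCM2-2A#2. Primitive endoderm markers summed to 13.002 to 16.1 CPM in WT#1 and to 36.3 to 53.3 CPM in MCM2-2A#2, with 6 of 6 higher. Neuronal markers summed to 382 to 408 CPM and to 288 to 316 CPM, with 3 of 5 lower. Higher and lower mean here past the limits of the test given below, as 1.8% and 0.959% of all genes were. In RNA of a whole culture, fewer cells of a type and less RNA per cell cannot be told apart.

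More genes were higher than lower in MCM2-2A#2, and those that rose had few counts in WT#1. Of 17098 genes tested with the edgeR quasi-likelihood test, 308 rose (1.8%) and 164 fell (0.959%), with limits of 0.01 on the adjusted p and 0.58 on the absolute log2 fold change. The median in WT#1, in CPM that are not corrected for gene length, was 1.802 CPM for the genes that rose, 14.7 CPM for those that fell and 10.0 CPM for all genes tested. Part of this gap is built in, as the level is taken in the line from which direction is measured. In MCM2-2A#2 the medians were 3.75 CPM for the genes that rose and 6.92 CPM for those that fell. Of the genes that rose, 168 changed more than 2-fold, 24 more than 4-fold and 7 more than 8-fold, and of those that fell, 56, 9 and 3 did. Cultures of the lines did not overlap for 303 of the 308 and 162 of the 164, against 9.21% of all genes without overlap and higher in MCM2-2A#2 and 9.71% without overlap and lower. The median log2 fold change over all genes was 0.01. Libraries titled tech2, called the second run here, hold parts or all of cultures 3 and 4 of both lines, and those titled tech1 are called the first run. The titles do not say how these libraries differ. The first run alone, which also holds fewer cultures per line, gave 316 genes, 260 of them shared with the 472. The second run alone, with 2 cultures per line, gave 20 genes, all 20 shared. Without culture 1 of MCM2-2A#2 301 genes passed and without culture 2 of MCM2-2A#2 288 did.

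**Figure D1:**
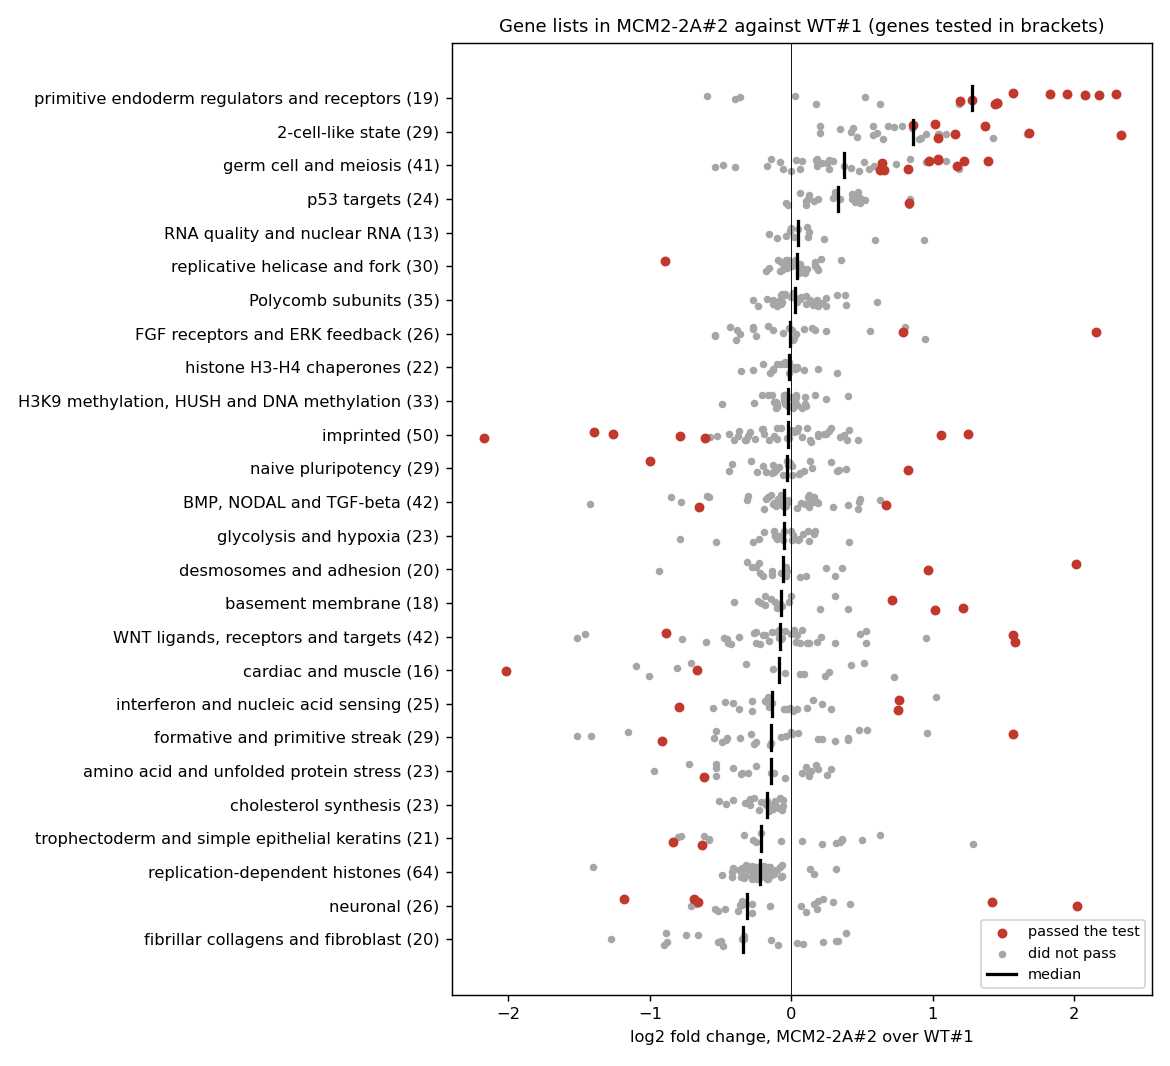
Log2 fold changes of the genes of 26 lists (horizontal axis, MCM2-2A#2 over WT#1, 4 cultures per line), with 1 row per list of at least 10 tested genes and the number tested in brackets. Red points passed the edgeR test, grey points did not and black bars are medians, the highest of which is 1.28 for primitive endoderm regulators and receptors.

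Promoter sequences of 4 genes that differed are shown for the contrast in their CG dinucleotides, the substrate of DNA methylation. They are RefSeq sequences of build GRCm38.p6 from 250 bases before to 50 bases after the annotated start, written 5′ to 3′ along the gene's strand with each CG in capitals. Cubn (chr2:13491827-13492126, minus strand) has 5 CG, Dazl (chr17:50293571-50293870, minus) 28, Col4a1 (chr8:11312777-11313076, minus) 37 and Klhl13 (chrX:23365033-23365332, minus) 15. Over the 10453 tested genes with such a sequence the median was 21 CG, with quartiles of 13 and 29. Only 61.7% of the genes that rose had an entry, so that no comparison of promoter content was made.
Cubn: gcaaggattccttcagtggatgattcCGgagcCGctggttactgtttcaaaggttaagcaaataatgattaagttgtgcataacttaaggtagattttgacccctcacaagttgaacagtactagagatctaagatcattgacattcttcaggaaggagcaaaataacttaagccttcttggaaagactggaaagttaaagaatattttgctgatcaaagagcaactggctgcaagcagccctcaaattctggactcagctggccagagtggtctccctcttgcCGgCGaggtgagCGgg
Dazl: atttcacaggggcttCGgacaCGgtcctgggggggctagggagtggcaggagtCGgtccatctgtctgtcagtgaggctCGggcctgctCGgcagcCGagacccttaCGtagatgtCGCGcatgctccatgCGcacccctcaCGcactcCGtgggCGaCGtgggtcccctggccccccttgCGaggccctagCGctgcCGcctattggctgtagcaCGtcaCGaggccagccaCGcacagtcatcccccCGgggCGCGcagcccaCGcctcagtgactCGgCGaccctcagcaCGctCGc
Col4a1: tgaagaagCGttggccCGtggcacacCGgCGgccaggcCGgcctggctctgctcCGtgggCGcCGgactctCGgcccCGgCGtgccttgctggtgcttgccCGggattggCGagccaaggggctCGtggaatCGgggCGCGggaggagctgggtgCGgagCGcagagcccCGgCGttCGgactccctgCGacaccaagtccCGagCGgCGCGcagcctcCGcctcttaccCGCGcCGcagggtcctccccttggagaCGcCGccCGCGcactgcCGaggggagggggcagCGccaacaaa
Klhl13: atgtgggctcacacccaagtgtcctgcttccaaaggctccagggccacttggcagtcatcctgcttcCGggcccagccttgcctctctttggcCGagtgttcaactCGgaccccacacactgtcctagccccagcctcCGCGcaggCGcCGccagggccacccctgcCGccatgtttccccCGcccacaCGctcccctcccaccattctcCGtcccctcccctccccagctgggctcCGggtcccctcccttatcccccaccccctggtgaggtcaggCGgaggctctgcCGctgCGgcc
Cubn and Dazl rose and Klhl13 fell, and Col4a1 starts on the opposite strand to Col4a2, which also rose.

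Primitive endoderm genes rose together in MCM2-2A#2. Gata6, the transcription factor that starts this lineage, had 1.52, 1.42, 1.64 and 1.34 CPM in the WT#1 cultures and 9.004, 8.54, 6.06 and 5.74 CPM in the MCM2-2A#2 cultures. All mutant cultures lay above all wild-type cultures, and cultures 1 and 2 of the mutant were above 3 and 4. The log2 fold change was 2.29 ± 0.19 (SE; edgeR adjusted p = 4.32e-06). Gata4, a related factor acting beside it, had 3.17, 2.76, 2.59 and 2.80 CPM against 8.32, 9.06, 7.05 and 6.17 CPM, again without overlap (1.44 ± 0.13, edgeR adjusted p = 1.31e-05). Sox17, an endoderm factor induced after Gata6, had 0.338, 0.291, 0.614 and 0.685 CPM against 2.30, 2.67, 2.47 and 1.85 CPM (2.17 ± 0.25, edgeR adjusted p = 8.57e-05), so that the lowest mutant culture stood above the highest wild-type culture.

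Some receptors of the same lineage also rose. Cubn, which encodes cubilin, an endocytic receptor of the visceral endoderm, had 6.34, 4.36, 5.24 and 5.85 CPM in WT#1 and 27.6, 27.3, 17.1 and 19.7 CPM in MCM2-2A#2. The cultures did not overlap, and those of the mutant split into a pair near 27 and a pair under 20. The log2 fold change was 2.08 ± 0.16 (edgeR adjusted p = 2.75e-06). Dab2, the clathrin adaptor that works with cubilin, had 6.34, 4.72, 7.06 and 7.19 CPM against 17.2, 19.2, 19.07 and 14.6 CPM (1.45 ± 0.14, edgeR adjusted p = 1.64e-05). Of 19 regulators and receptors tested, 11 rose, against 1.8% of all genes, and the list's median was 1.28. Others that rose included Amn, the partner of cubilin, the factors Sox7 and Foxq1, the growth factor receptor Pdgfra and the proteoglycan Srgn, with log2 fold changes of 1.19 to 1.95. Foxa2 (1.19, adjusted p = 0.097), Hnf4a (0.52, adjusted p = 0.27) and Lrp2 (0.02, adjusted p = 0.87) did not pass, and Fst, Klf6 and Cited1 lay below 0. The count of 11 was the same in each of the 8 fits that left out a culture, 10 with the first run alone and 2 with the second run alone.

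**Figure D2:**
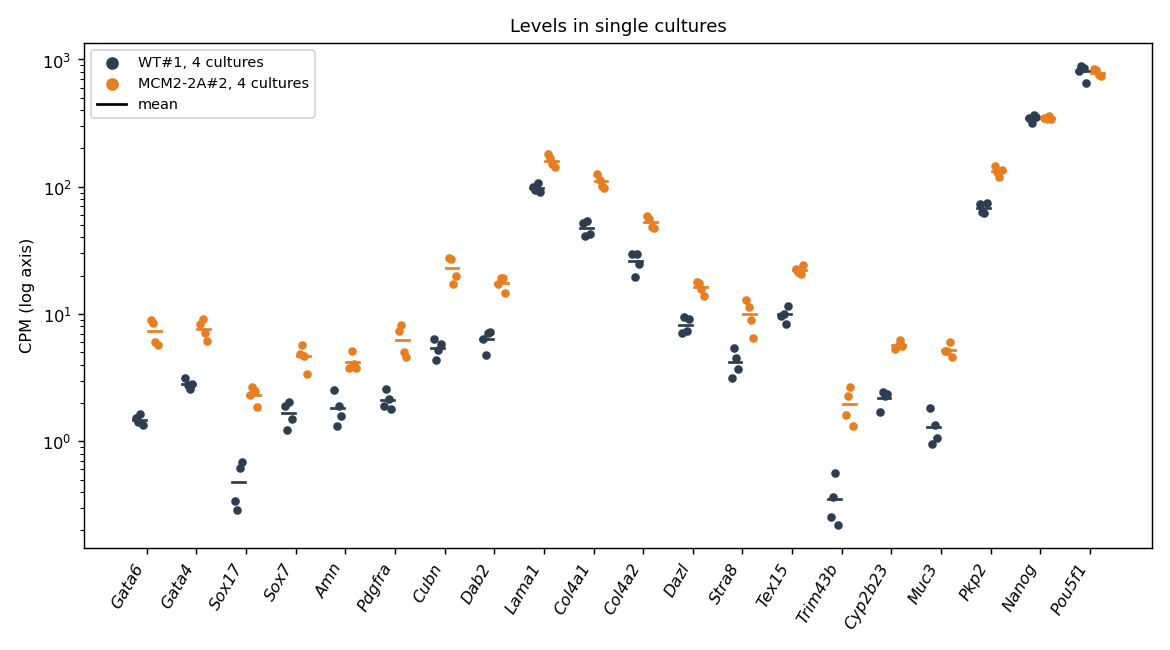
CPM in single cultures (points, log axis) of 20 genes in WT#1 (dark) and MCM2-2A#2 (orange), with short lines at the means of 4 cultures. The lines are apart for the 8 endoderm genes at the left and lie at the same level for Nanog and Pou5f1 at the right; the genes were picked for display after their values were seen.

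The basement membrane, the sheet of laminin and type IV collagen that primitive endoderm secretes, was represented by 3 chains. Col4a1, which encodes a type IV collagen chain, had 51.7, 41.0, 54.0 and 42.7 CPM against 127, 114, 102 and 98.1 CPM (1.22 ± 0.16, edgeR adjusted p = 2.37e-04). Its partner chain Col4a2 had 29.8, 19.5, 29.8 and 24.7 CPM against 58.7, 55.4, 48.3 and 47.7 CPM (1.01 ± 0.21, edgeR adjusted p = 0.00602). Lama1, the laminin chain of the embryonic basement membrane, had 98.8, 94.8, 107 and 91.3 CPM against 181, 168, 150 and 143 CPM (0.71 ± 0.08, edgeR adjusted p = 1.15e-04). The cultures did not overlap for any of these chains. The partner laminins did not follow to that size, with 0.20 for Lamb1 (adjusted p = 0.027) and -0.02 for Lamc1 (adjusted p = 0.87). In all 3 of 18 basement membrane genes rose, against 1.8% of all genes, and the list's median was -0.07. The count was 2 in 7 of the 8 fits without a culture.

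Genes of the 2-cell-like state lay above WT#1 in 29 of 29 cases, against 51.3% of all genes, with a median of 0.86. Of these 29 genes 7 rose, against 1.8% of all genes. At an unadjusted p under 0.05 22 were higher, and the share of all genes at that p is not given. Cyp2b23, a cytochrome P450 gene active in this state, had 1.69, 2.43, 2.29 and 2.34 CPM in WT#1 and 5.29, 5.64, 6.28 and 5.57 CPM in MCM2-2A#2, with every mutant culture more than 2-fold above every wild-type culture. Its log2 fold change was 1.37 ± 0.13 (edgeR adjusted p = 1.12e-05). Trim43b, a ubiquitin ligase-like gene of the early embryo, had 0.253, 0.363, 0.563 and 0.218 CPM against 1.62, 2.26, 2.65 and 1.31 CPM (2.33 ± 0.29, edgeR adjusted p = 1.98e-04). Its copy Trim43a rose by 1.68 and the deubiquitinase gene Usp17la by 1.15, and the remaining members that rose were Usp17le, Arg2 and Tmem92. Trim43 and Usp17l genes are families of near-identical copies, so that their reads can be split or shared between members. The 6 Zscan4 genes tested, which mark this state by name, had log2 fold changes of 0.20 to 0.68 and did not pass. The first run alone called 4 members and the second run alone called 0, fits without a culture called 5 to 13, and DESeq2 called 11.

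Of 41 germ cell genes 10 rose in MCM2-2A#2, by 0.63 to 1.39 on the log2 scale. Tex15, which guides retrotransposon silencing in spermatogonia, had 9.63, 10.0, 8.41 and 11.6 CPM in WT#1 and 22.7, 21.3, 20.8 and 24.1 CPM in MCM2-2A#2. No mutant culture reached down to a wild-type culture, and the log2 fold change was 1.17 ± 0.11 (edgeR adjusted p = 1.41e-05). Dazl, an RNA-binding protein that licenses germ cells for meiosis, had 7.10, 9.55, 7.30 and 9.09 CPM against 17.8, 17.5, 15.8 and 13.9 CPM (0.98 ± 0.11, edgeR adjusted p = 6.34e-05). Mael, a factor of the piRNA pathway, had 0.82 ± 0.11 and Taf7l, a testis form of a TFIID subunit, 1.04 ± 0.17 as log2 fold changes. Stra8, Meioc and Rec8, which act at meiotic entry and in cohesion, also rose, as did Usp26, Fkbp6 and Tex101. The 10 that rose compare with 1.8% of all genes, and 33 of the 41 lay above 0, against 51.3% of all genes, with a median of 0.37. Genes of the synapsis machinery did not pass, with 0.84 for Sycp1 (adjusted p = 0.016), 0.95 for Sycp2 (adjusted p = 0.025) and 0.21 for Sycp3 (adjusted p = 0.48). The count varied with the libraries fitted: the first run alone called 1 member, the second run alone 0, and fits without a culture called 5 to 11. Each run alone holds fewer cultures per line, so run and number of cultures cannot be told apart.

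The 12 largest increases were taken among genes that passed, had at least 1 CPM and did not overlap between lines, which leaves out genes with larger fitted folds and fewer counts. Serpina3m led these 12. Serpina3m, a secreted serine protease inhibitor, had 0.296, 0.254, 0.171 and 0.0934 CPM in WT#1 and 2.17, 2.49, 3.55 and 2.47 CPM in MCM2-2A#2. Its WT#1 level rests on 27 counts over 4 cultures against 352 in the mutant (3.75 ± 0.33, edgeR adjusted p = 8.24e-06). Muc3 and Pkp2 are members of a desmosome and adhesion list. Muc3, a membrane mucin, had 1.82, 0.944, 1.35 and 1.06 CPM against 5.12, 5.08, 6.01 and 4.62 CPM (2.01 ± 0.17, edgeR adjusted p = 7.22e-06). Pkp2, a desmosome plaque protein, had 73.3, 63.0, 61.8 and 74.6 CPM against 146, 130, 119 and 137 CPM (0.97 ± 0.08, edgeR adjusted p = 4.74e-06). None of the 3 genes overlapped between lines. They were the 2 of 20 genes of that list that rose, against 1.8% of all genes, and the list's median was -0.06. The other genes among these 12 that are not described elsewhere were Gm43549, a long noncoding RNA gene (3.01), Alppl2, an alkaline phosphatase of the early embryo (2.35), Slc26a9, an anion transporter (2.16), Syt2, a synaptic vesicle calcium sensor (2.11), Nostrin, a membrane trafficking adaptor (2.08), and Slc25a34, a mitochondrial carrier (2.05).

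Signalling genes moved singly. Klb, the co-receptor through which FGF receptors bind endocrine FGFs, had 0.338, 0.436, 0.529 and 0.560 CPM in WT#1 and 3.09, 2.49, 1.21 and 1.78 CPM in MCM2-2A#2 (2.15 ± 0.28, edgeR adjusted p = 2.52e-04). The mutant cultures spread widely, culture 3 being the lowest, without reaching WT#1. With Phlda1, a gene induced by ERK, Klb made 2 of 26 FGF and ERK genes that rose. Of 42 WNT genes Dkk1, a secreted antagonist (1.58 ± 0.24), and Lgr5, an R-spondin receptor (1.57 ± 0.33), rose and the receptor gene Fzd2 fell by 0.89. Of 42 BMP, NODAL and TGF-beta genes the co-receptor Tgfbr3 rose by 0.67 and the inhibitor Smad6 fell by 0.65. The medians of these lists lay between -0.08 and -0.01. Of all genes 1.8% rose and 0.959% fell, and the BMP, NODAL and TGF-beta list lay near that with 2.38% each way. Foxn4 (1.42) and Pou4f3 (2.02), transcription factors of neurons and sensory cells, rose, whereas the neurofilament gene Ina (-0.69), the synaptic gene Syt1 (-1.18) and the dendritic gene Map2 (-0.66) fell. Over 26 neuronal genes the median was -0.31. Without culture 1, 3 or 4 of WT#1 or culture 1 or 2 of MCM2-2A#2, 1 neuronal gene was called lower in place of 3. Fits without a culture called 1 to 3 FGF and ERK genes higher, 1 or 2 WNT genes higher and 0 or 1 lower, and 0 or 1 BMP, NODAL and TGF-beta gene higher and 0 to 2 lower.

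In the list of naive pluripotency genes 1 rose and 1 fell (3.45% each), against 1.8% and 0.959% of all genes. The same shares of all genes stand beside the other lists of this paragraph. Tbx3, a factor of the naive state that also promotes primitive endoderm, had 202, 224, 215 and 207 CPM in WT#1 and 408, 421.1, 329 and 348 CPM in MCM2-2A#2, without overlap (0.83 ± 0.10, edgeR adjusted p = 1.28e-04). Dppa3, a maternal factor that protects DNA methylation in the zygote, had 6.51, 6.97, 7.71 and 6.57 CPM against 3.47, 3.08, 3.86 and 3.53 CPM, and fell by 0.999 ± 0.15. These were the 2 of 29 naive genes that passed, and Klf4 (0.34, adjusted p = 0.0022) and Il6st, the receptor subunit through which LIF signals (-0.44, adjusted p = 0.0024), met the p limit but not the fold limit. Of 29 formative and primitive streak genes Lgr5 rose and Sox11, a progenitor factor, fell by 0.91 ± 0.19. Among 21 trophectoderm genes the keratin Krt42 fell by 0.84 and the factor Tfap2c by 0.63. Among 16 cardiac and muscle genes Cnn2, a calponin, fell by 0.67, and Actc1, cardiac actin, fell by 2.02 ± 0.45 with cultures that overlapped (2.07 to 7.01 against 0.378 to 2.20 CPM). Of these 16, 0 were lower when culture 1, 3 or 4 of WT#1 or culture 1 or 2 of MCM2-2A#2 was left out, and fits without a culture called 0 or 1 formative gene higher, 0 to 2 lower and 1 to 3 trophectoderm genes lower.

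Of the genes that fell, Klhl13, an X-linked adaptor of the CUL3 ubiquitin ligase, was among the 12 with the largest decreases within these limits. Its cultures had 260, 337, 273 and 275 CPM in WT#1 and 65.8, 85.4, 89.3 and 79.6 CPM in MCM2-2A#2, a fall by 1.84 ± 0.11 on the log2 scale (edgeR adjusted p = 1.48e-07). Igsf23, an immunoglobulin superfamily gene, had 5.79, 7.59, 5.71 and 5.70 CPM against 1.72, 1.82, 1.39 and 1.57 CPM (-1.92 ± 0.16). Both genes were lower in every mutant culture by more than 2-fold. Gna14, a Gq-family G protein subunit (-1.78), Maml2, a Notch coactivator (-1.83), and the long noncoding RNA genes Gm28625 (-2.88) and Gm12690 (-1.64) followed. The other members of these 12, chosen by the same limits on level and overlap, were Peg13 and 5 chromosome Y genes.

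Imprinted genes, of which a single parental copy is active, moved in both directions. Zrsr1, a paternally expressed splicing factor gene, had 15.2, 16.7, 14.5 and 17.1 CPM in WT#1 and 34.6, 34.0, 31.5 and 32.0 CPM in MCM2-2A#2, a step to 2.08-fold with little spread (1.06 ± 0.07, edgeR adjusted p = 4.75e-07). H19, a maternally expressed noncoding RNA, had 6.76, 8.35, 8.95 and 6.48 CPM against 14.8, 16.7, 20.5 and 20.8 CPM (1.25 ± 0.16, edgeR adjusted p = 2.32e-04). Mest, a paternally expressed hydrolase gene, had 78.2, 74.6, 96.5 and 85.4 CPM against 26.3, 26.5, 41.1 and 33.5 CPM (-1.40 ± 0.14, edgeR adjusted p = 2.17e-05). The cultures did not overlap for any of them. Impact, which restrains the stress kinase GCN2, fell by 0.79, and the paternally expressed genes Peg12 and Peg13 fell by 1.26 and 2.17, and the maternal noncoding RNA Rian by 0.61. Of 50 imprinted genes 2 rose and 5 fell, against 1.8% and 0.959% of all genes, 28 lay below 0 and the median was -0.03.

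Mcm2 itself and a block of neighbouring genes were lower in MCM2-2A#2. Mcm2 had 403, 439.2, 433 and 397 CPM in WT#1 and 219, 233, 231 and 218 CPM in MCM2-2A#2 (-0.89 ± 0.05, edgeR adjusted p = 6.93e-08). The reads do not show whether the RNA carries the mutation, since counts per gene hold no bases. The partner subunits did not pass, with log2 fold changes of 0.19 for Mcm4 (adjusted p = 0.00619, under the fold limit), 0.21 for Mcm5 (adjusted p = 0.026), 0.11 for Mcm3, 0.09 for Mcm6 and 0.06 for Mcm7. On chromosome 6, from Mcm2 to the taurine transporter gene Slc6a6 (chr6:88883474-91759066, mm10), 27 of 27 genes tested lay below 0 with a median of -1.07, and 18 fell. The range was -1.46 to -0.13, with the smallest change for Aldh1l1 (edgeR adjusted p = 0.70). The stretch was delimited after its values were seen and carries no test. Its summed level was 1130, 1149, 1123 and 1119 CPM in WT#1 and 566, 575, 557 and 569 CPM in MCM2-2A#2, a log2 difference of -0.995. The 10 tested genes before it had a median of -0.03 and the 10 after it 0.12. On the rest of chromosome 6 15 of 780 genes rose and 6 fell. Of all genes tested 1.8% rose, 0.959% fell and 51.3% lay above 0.

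**Figure D3:**
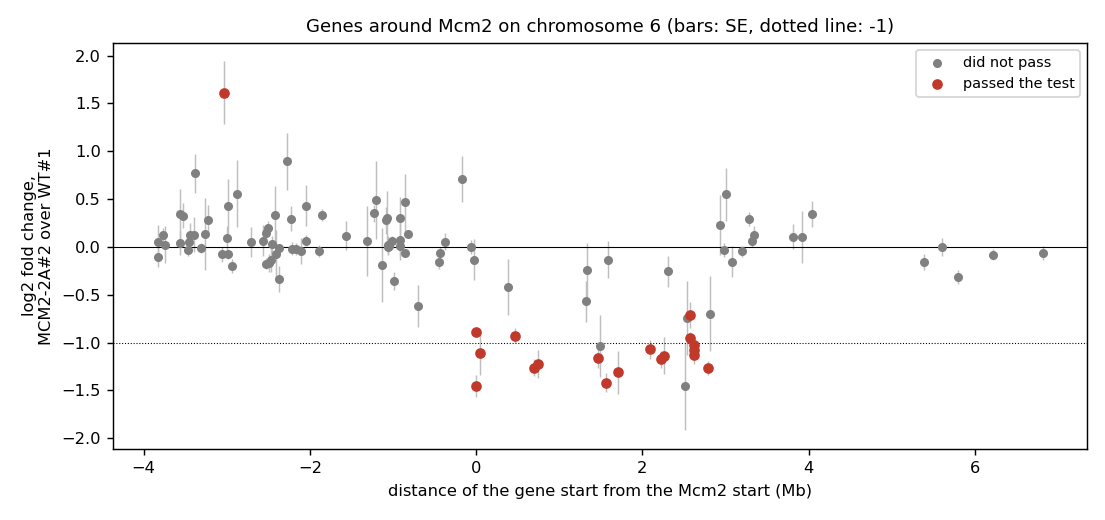
Log2 fold change with SE (vertical axis, MCM2-2A#2 over WT#1) of tested genes by distance in Mb from the Mcm2 start, with genes that passed the test in red. The 27 genes from Mcm2 to Slc6a6 lie between -1.46 and -0.13 (median -1.07), and genes on both sides of them around 0.

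Single-copy genes of chromosome Y were lower still. Uty, a histone demethylase-like gene, had 23.4, 25.3, 27.4 and 28.1 CPM in WT#1 and 1.44, 1.22, 1.17 and 1.16 CPM in MCM2-2A#2 (-4.39 ± 0.14, edgeR adjusted p = 2.09e-10). Ddx3y, an RNA helicase, had 42.9, 44.3, 50.9 and 50.8 CPM against 2.27, 2.71, 2.29 and 1.66 CPM (-4.45 ± 0.15, edgeR adjusted p = 4.16e-10). Every mutant culture was far below every wild-type culture for both genes. Zfy1, Eif2s3y and Uba1y fell by 3.64, 2.59 and 2.07, so that 5 of 6 genes fell, against 0.959% of all genes. The other 1 lay above 0 (0.48) and did not pass. The sum of 9 such genes was 109 ± 9.25 CPM in WT#1 and 10.5 ± 1.53 CPM in MCM2-2A#2 (SD, n = 4; two-sided exact permutation p = 0.0286, the smallest that 4 against 4 allows). How many cells carry the chromosome was not tested.

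Repeats lay above WT#1 as a class. Over 879 subfamilies the median log2 fold change was 0.21 and 87.9% lay above 0, against 0.01 and 51.3% for genes. The edgeR test called 18 higher (2.05%) and 0 lower, with 6 lower at an unadjusted p under 0.05 and 0 lower with DESeq2. All repeats summed to 54673, 52679, 50052 and 56288 CPM in WT#1 and to 59445, 60929, 57378 and 63623 CPM in MCM2-2A#2 (log2 difference 0.18, two-sided exact permutation p = 0.0286). The sum of SINE elements, short retrotransposons copied by the L1 machinery, was 21259 ± 912 CPM against 25298 ± 1233 CPM (0.25, exact permutation p = 0.0286). Sums of ERV1, ERVL, ERVL-MaLR and satellite repeats also did not overlap, whereas ERVK (9140 ± 605 against 8896 ± 673 CPM, exact permutation p = 0.6), L1 (exact permutation p = 0.171) and DNA transposons (exact permutation p = 0.343) did. Adjusted over the 11 sums tested, each p of 0.0286 became 0.0449. The 37 chromosome M genes, mitochondrial rRNA and tRNA genes included, summed to 22601 ± 6731 CPM and 25528 ± 3559 CPM (exact permutation p = 0.429). The rRNA gene mt-Rnr2 alone held 10693 CPM of the mean in WT#1 and 11018 CPM in MCM2-2A#2.

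Retroviral sequences (LTR class) made up 17 of the 18 subfamilies that rose and 522 of the 879 subfamilies tested. MMERGLN-int, the internal part of a gammaretrovirus of the ERV1 family, had 103, 117, 95.1 and 105 CPM in WT#1 and 389, 446, 307 and 444 CPM in MCM2-2A#2 (1.92 ± 0.10, edgeR adjusted p = 1.38e-08). Its promoter-bearing terminal repeat MMERGLN_LTR had 14.8, 17.8, 12.7 and 16.7 CPM against 36.3, 44.5, 31.1 and 41.4 CPM (1.32 ± 0.12). In both, culture 3 was the lowest of each line. RLTR45-int of the ERVK family had 54.3, 56.1, 56.3 and 61.3 CPM against 142, 127, 140 and 130 CPM (1.24 ± 0.12, edgeR adjusted p = 1.23e-05). MMERVK10C-int, another ERVK provirus, had 41.7, 39.9, 40.1 and 44.5 CPM against 68.5, 65.8, 87.6 and 82.6 CPM (0.87 ± 0.09), and MMERVK9E_I-int and ERVB4_2-LTR_MM of that family rose by 0.65 and 1.10. RLTR4_MM-int, an ERV1 element related to murine leukaemia viruses, rose by 0.63 and ORR1A1-int, an ERVL-MaLR element, by 0.60. The major satellite GSAT_MM of pericentromeric chromatin had 46.9, 64.0, 45.2 and 53.7 CPM against 123, 162, 111 and 183 CPM, and its cultures varied more within the mutant than those of the retroviruses. MERVL-int, the retrovirus that accompanies the 2-cell-like state, had 508.6, 576, 385 and 516 CPM against 673, 861, 663 and 847 CPM without overlap but did not pass (0.62 ± 0.15, edgeR adjusted p = 0.0209). Without culture 3 of WT#1 11 subfamilies passed, and the second run alone gave 3.

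**Figure D4:**
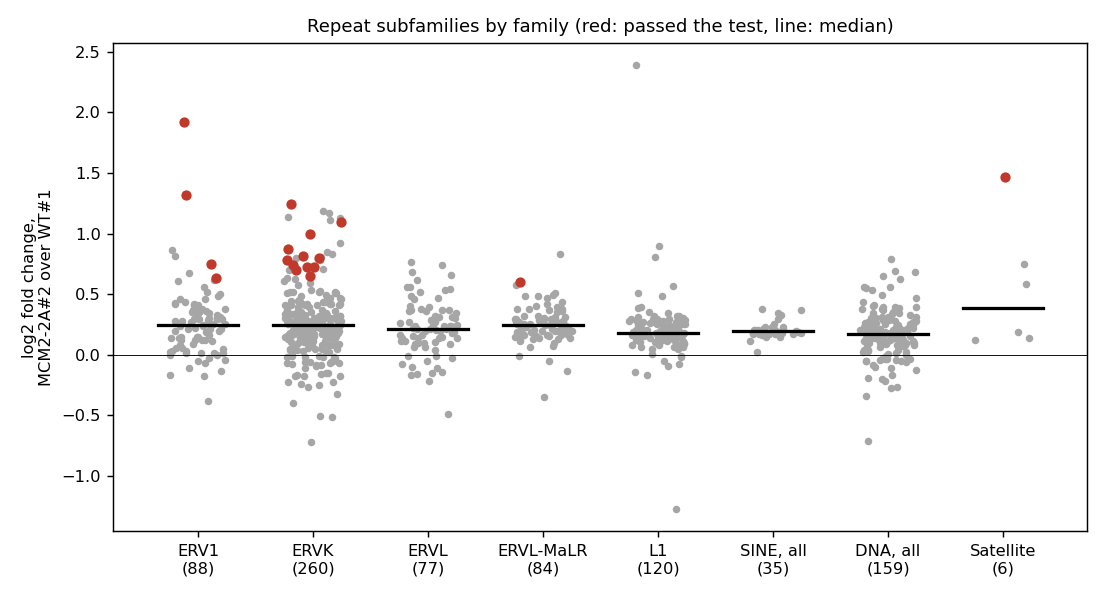
Log2 fold change (vertical axis, MCM2-2A#2 over WT#1) of repeat subfamilies by family, with the number tested in brackets, black bars at the medians and red points for the 18 that passed. Medians lie above 0 in each of the 8 groups, between 0.17 and 0.39.

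Lists of chromatin, replication and metabolic genes held few or no genes that passed, where 1.8% of all genes rose and 0.959% fell. With edgeR 0 of 35 Polycomb subunits, 0 of 33 genes of H3K9 and DNA methylation and 0 of 22 chaperones of histones H3 and H4 passed. At an unadjusted p under 0.05 the counts were 11, 8 and 9, and DESeq2 called 0 in each. The share of all genes at that p is not given, so counts at that p are not read as shifts of a list. For the counts above or below 0 that follow, 51.3% of all genes lay above 0. Replication-dependent histone genes lay below 0 in 61 of 64 cases with a median of -0.22, and 48 were lower at an unadjusted p under 0.05, though edgeR called 0 and DESeq2 1. Genes of cholesterol synthesis lay below 0 in 23 of 23 cases (median -0.17), with 14 lower at an unadjusted p under 0.05 and 0 called by either tool. The p53 targets lay above 0 in 22 of 24 cases with a median of 0.33, and Pmaip1, a BH3-only death gene, rose by 0.83 ± 0.11. Among stress genes Atf4, the effector of GCN2 signalling, fell by 0.62 ± 0.08, and among 25 interferon and sensing genes the peptide transporter Tap1 (0.75) and the apoptosis adaptor Xaf1 (0.76) rose and the antiviral Oas1a fell by 0.79. Fits without a culture called 0 or 1 interferon gene higher, with 0 without culture 3 or 4 of WT#1 or culture 1 or 2 of MCM2-2A#2, and 0 to 3 stress genes lower. Fibroblast genes had a median of -0.34, with 6 of 20 lower at an unadjusted p under 0.05 and 0 called by either tool. A fit with culture number as a block called 5 fibroblast genes lower.

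Libraries of the clone experiment, those of MCM2-2A#2 and MCM2-2A#1 included, held 27854706 to 67467849 counts. The other clones, which share no line with this comparison, gave values for the same genes. Of the 308 genes that rose, 301 were tested there. For 301 of 301 the change fitted over the 5 other MCM2-2A and 6 other WT clones lay above 0, against 46.2% of all genes. Their median was 0.71, against 1.04 in MCM2-2A#2. Of the 164 genes that fell, 148 of the 159 tested lay below 0, against 53.8% of all genes, with a median of -0.41. In single clones of these 5, 264 to 294 of the 308 lay above the mean of the other WT clones. Of the 164, 122 to 140 lay below that mean. MCM2-2A#1, which is not among the 5, had 253 of the 308 and 109 of the 164. The share of all genes is not given for single clones. In those clones edgeR called 17 of 20562 genes (0.0827%), 16 higher (0.0778%) and 1 lower (0.00486%), among them Serpina3m (3.14), Muc3 (1.75), Pkp2 (0.81), Cd74, Slc1a1 and Ano1 of the genes that rose here. At an unadjusted p under 0.05, 219 of the 301 and 68 of the 159 had the same direction, without a share of all genes at that p beside them. The count of 17 is 0 when any of 9 of the 11 clones is left out and 28 without another WT clone, and DESeq2 called 248.

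Named genes differed in how far the other clones followed. Gata6 had 0.50 to 1.22 CPM in the other WT clones and 1.79 to 3.97 CPM in the other MCM2-2A clones, without overlap (1.57 ± 0.24), and Klb had 0.0724 to 0.474 and 0.578 to 1.12 CPM (1.60 ± 0.33). Dazl (1.07 ± 0.17) and Klhl13 (-1.16 ± 0.34) also kept most of their size, and these 4 did not pass in the clones (edgeR adjusted p = 0.016, 0.044, 0.018 and 0.13). Dab2 gave 0.36 ± 0.30 and Gata4 0.99 ± 0.50 with overlapping clones. Of the primitive endoderm genes that rose 11 of 11 were above 0, as were 7 of 7 of the 2-cell-like and 10 of 10 of the germ cell genes. These counts do not set the lists apart, since 301 of 301 of all genes that rose were above 0. Over all members tested in the clones, 14 of 19, 29 of 29 and 33 of 41 were above 0. The imprinted genes that passed in MCM2-2A#2 gave -0.04 ± 0.11 for Mest, -0.18 ± 0.16 for Peg13, -0.10 ± 0.12 for Impact, 0.35 ± 0.19 for Zrsr1, -0.37 ± 0.16 for Rian, -0.87 ± 0.37 for Peg12 and 0.09 ± 0.88 for H19, with edgeR adjusted p of 0.26 to 0.97. H19 spanned 0.695 to 65.3 CPM among the other WT clones alone. Chromosome 6 genes from Mcm2 to Slc6a6 summed to 436 CPM in the MCM2-2A#2 libraries of the clone experiment and to 738 to 959 CPM in 12 other clones, MCM2-2A#1 included. Mcm2 itself gave -0.47 ± 0.17 in the other MCM2-2A clones relative to the other WT clones (edgeR adjusted p = 0.19). Single-copy chromosome Y genes summed to 14.2 CPM in MCM2-2A#2 and 93.4 CPM in MCM2-2A#1. The other MCM2-2A clones had 24.1, 44.3, 143, 145 and 151 CPM, and the other WT clones 177 to 188 CPM. MCM2-2A#2 set against MCM2-2A#1, with 3 libraries each in the clone experiment, gave 12 genes of 19757 with edgeR (0.0607%), 9 higher (0.0456%) and 3 lower (0.0152%), but 528 higher and 913 lower without library 1 of MCM2-2A#2, which stood apart. Differences between the effect in MCM2-2A#2 and in the other clones were not tested.

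**Figure D5:**
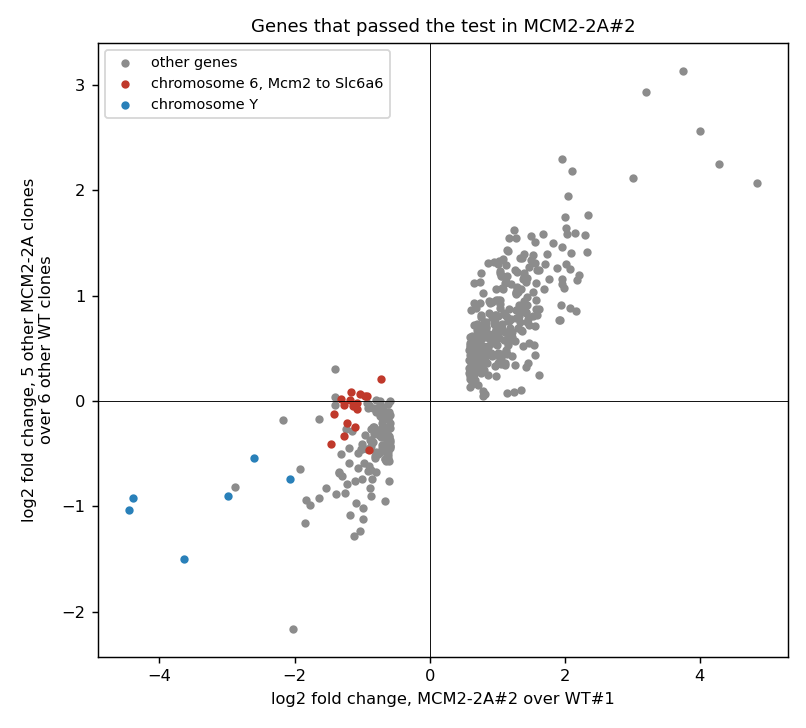
Log2 fold change in 5 other MCM2-2A clones over 6 other WT clones (vertical axis) against that in MCM2-2A#2 over WT#1 (horizontal axis) for genes that passed in the latter. All 301 genes at the right lie above 0, whereas the 17 genes of the chromosome 6 stretch (red) lie between -0.47, for Mcm2, and 0.21 on the vertical axis, with a median of -0.04.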

How the data were processed

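The authors deposited raw counts per gene (55335 rows) and per repeat subfamily (1146 rows). The labels name Trimmomatic 0.39, STAR 2.7.1a and mm10. They name featureCounts for the clone libraries but no counting tool for the rescue libraries, and the strand setting is not given in the sources used here. Symbols come from GENCODE vM21 (181 rows without one). Among columns of the clone counts, 3 match no sample and were not used, nor were the POLE4 counts.

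Counts of tech1 and tech2 libraries of a culture were summed. The 4 cultures of another line of the experiment shared the filter, the scaling and the spread estimate and entered no comparison. Fits of a single run left them out. Features passing filterByExpr (min.count 10, min.total.count 15) were fitted with edgeR 4.0.16 (limma 3.58.1, R 4.3.3) quasi-likelihood tests, TMM factors from genes, Benjamini-Hochberg adjustment separately for genes and repeats; "rose", "fell" and "passed" mean past both limits, 0.01 for the adjusted p and 0.58 for the absolute log2 fold change. SE is the log2 fold change over the square root of F. DESeq2 1.42.0 was an alternative. For the other clones, the libraries of a clone were added up. The tests were tested on simulated data. Files were handled with data.table (1.17.8), pandas 2.3.3 and Python 3.11.15, and plotted with matplotlib 3.10.9.

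Named are the 12 largest increases and decreases without overlap of cultures and at least 1 CPM, up to 4 called members per list by p, 8 repeats, MCM subunits, ESC markers and the genes with most counts; others were chosen after their values were seen. Members and lists were chosen with earlier results of these data known. A member of the primitive endoderm list is counted but not reported here by its values.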

Additional observations from a re-analysis of the deposited data

Results flagged for a closer look

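In 7 of 210 groups of 4 cultures, those of 93 named features and 12 summed levels, the culture farthest out was separated by a gap whose share of the group's range exceeded Dixon's 95% critical value, which chance gives in about 1 in 20 groups. In WT#1, culture 2 was high for Igsf23 (7.59 CPM against 5.70 to 5.79, gap share 0.953) and low for Phlda1 (10.6 CPM against 18.1 to 19.3, 0.858). Culture 4 of WT#1 was low for Alppl2 (0.125 CPM against 0.338 to 0.375, 0.852) and Syt2 (0.156 CPM against 0.375 to 0.400, 0.9) and high for Gm43549 (0.280 CPM against 0.109 to 0.127, 0.896), all genes with few counts. Culture 3 of WT#1 was low for the repeat ORR1A1-int (26.3 CPM against 28.9 to 29.0, 0.963). In MCM2-2A#2, culture 3 was high for Smad6 (5.61 CPM against 4.27 to 4.49, 0.836). Cultures of the lines did not overlap for any of these 7 features.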

How the results depend on the processing

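Each line is 1 clone, the WT#1 values of many genes rest on few counts, and the tech2 libraries, called the second run, hold 2 cultures per line. Against 472 genes and 18 repeats, the second run alone gave 20 and 3, glmTreat against the fold limit 86 and 4, an adjusted p below 0.05 934 and 31, and no fold limit 956 and 34. Fits without a culture gave 288 to 475 genes and 11 to 22 repeats. DESeq2 called 625 genes, 462 of them among the 472, and in no setting did a feature pass in the opposite direction. The cause of these differences was not tested.

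The replicate block gave 901 genes and 30 repeats, among them 5 fibroblast genes lower in place of 0 and 15 genes of the 2-cell-like state higher in place of 7. Cultures of the same number correlated by -0.01, 0.34, 0.40 and 0.24 in their deviations, 3 of 4 over 0.1, and culture 1 of WT#1 correlated best with culture 4 of MCM2-2A#2, so the numbers are not taken as pairs. For MCM2-2A#2 against MCM2-2A#1 the block gave 9 genes higher and 2 lower against 9 and 3.

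In the other clones, DESeq2 called 248 genes against 17, and fits without a clone 0 to 28. For MCM2-2A#2 against MCM2-2A#1, DESeq2 called 302 higher and 137 lower, and fits without a library 1 to 528 and 1 to 913. No summed level changed direction. Of 93 named features, DESeq2, scaling by RLE and the block changed no call, upper-quartile scaling lost 2, the first run alone 12, glmTreat 37 and the second run alone 59.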

Other observations

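Chromosome X held 19 genes that rose and 10 that fell among 568 tested (3.35% and 1.76%, against 1.8% and 0.959% of all genes). The following were chosen after their values were seen. Nxf7, a germline relative of the mRNA export factors, rose by 1.93, the noncoding RNA Tsx by 1.43, Mageb4, a cancer-testis gene, by 1.27 and Tktl1, a transketolase-like gene, by 1.11. Rhox5 (-1.53) and Mageb16 (-1.23) fell while Rhox13 rose by 0.98, so that members of the reproductive homeobox and Mage families of this chromosome lay on both sides.

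Of the genes that rose, 40 of 308 (12.99%) had another such gene starting within 100 kb, against 5.42% of all genes tested, and 36 of 293 outside chromosomes 6 and Y. Pairs include Col4a1 and Col4a2, which start on opposite strands beside each other, and H19 with the microRNA gene inside it. Of the genes that fell 26 of 164 (15.9%) had such a neighbour, against 2.5% of all genes tested, but 6 of 134 outside chromosomes 6 and Y. Genes between 0.1 and 1 CPM in WT#1 numbered 3363, of which 103 rose and 4 fell, and of the 1698 over 100 CPM 2 rose and 15 fell. These bands are set by the WT#1 level itself, and genes low in WT#1 could pass the filter through another line alone. No direction is read from them.

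Lx4A and Lx2B2, L1 subfamilies, each had a single culture far from the others. Lx4A had 499 CPM in culture 1 of MCM2-2A#2 and 27.2 to 65.6 CPM in the other 7 cultures, and Lx2B2 had 537 CPM in culture 3 of WT#1 and 72.1 to 81.5 CPM in the other 7. Neither passed (edgeR adjusted p = 0.041 and 0.13).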
